A study of Mus musculus and Homo sapiens with 67 samples.

Results

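The 7 genes described here encode the cyclin-dependent kinase (CDK) inhibitors: CDKN1A (p21), CDKN1B (p27) and CDKN1C (p57) of the CIP/KIP family, and CDKN2A (p16INK4a and ARF), CDKN2B (p15), CDKN2C (p18) and CDKN2D (p19INK4d) of the INK4 family. They were chosen by matching gene symbols, ignoring case, in 4 expression tables that together list 115899 human and mouse gene IDs, and each of the 7 was found in each table. Testing was limited to genes that reached 1 FPKM (fragments scaled by transcript length and library size) in at least 3 libraries of a cell line or 4 tumour libraries. By that filter 6 of the 7 were tested in PSN1 cells, 5 in SW1990 cells, 7 in KPC cells and 7 in KPC tumours.

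The cultured cells were of 3 kinds: PSN1 and SW1990, both long-established human lines of pancreatic cancer, and KPC cells, a mouse line of pancreatic cancer for which the labels give no genotype. Each line had 3 libraries per arm, and its arms were DMSO (the control), tazemetostat, RMC-6236 and the combination of both drugs. Orthotopic KPC tumours, which grew in the mouse pancreas, had 4 libraries per arm for these treatments, and their control was vehicle. The labels do not say whether the tumours were grown from the cultured KPC line. Value columns of the tumours carry the prefix KPC1199, which those of the cultured cells lack. Tazemetostat inhibits EZH2, the histone H3 lysine 27 methyltransferase of polycomb repressive complex 2, and RMC-6236 inhibits RAS proteins in their active, GTP-bound state. No dose, treatment time, mouse strain or age is given, and nothing in the labels says that the 3 libraries of an arm came from separate cultures, so p-values measure the spread between these libraries, which may be technical.

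CIP/KIP proteins bind cyclin-CDK complexes, above all those of CDK2, and halt the cell before or during S phase, while INK4 proteins bind CDK4 and CDK6 and keep cyclin D from activating them. Active CDKs phosphorylate the RB protein and release E2F, which switches on the genes of DNA replication, and RAS signalling drives this step through cyclin D. Polycomb repression of CDKN2A and CDKN2B, and frequent deletion of CDKN2A in pancreatic cancer, are textbook knowledge, as are the control of p27 by the SCF-SKP2 ubiquitin ligase and of CDKN1C by imprinting.

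FPKM keep no read totals, so depth per library is unknown and precision was read from the spread within an arm. A library of the human lines held 11489 to 12772 genes at 1 FPKM or above, one of KPC cells 11673 to 11947, and a tumour library 12386 to 13414. Mitochondrial genes took 22.7% to 32.5% of the FPKM in the human lines and 9.41% to 12.4% in the mouse libraries. All 6 epithelial markers reached 1 FPKM in each line. Of 10 fibroblast markers 6 reached 1 FPKM in PSN1, 3 in SW1990 and 5 in KPC cells, with sums of 29.4 to 122, 1.96 to 29.6 and 40.1 to 68.6 FPKM, and THY1 in PSN1 and Thy1 in KPC cells were at 0. Those sums were above control in every RMC-6236 and combination library of the 3 lines. Of the macrophage markers 1 of 7, 1 of 7 and 2 of 8 reached it, with sums of 6.26 to 25.6, 35.9 to 64.2 and 7.29 to 26.9 FPKM. C1QA, C1QB and C1QC, and in KPC cells also Adgre1, were at 0. The part of these genes in the results for the inhibitors was not tested. Differences are given as log2(FPKM + 1), treated minus control, with the standard error of a limma fit, and a gene was called where its Benjamini-Hochberg adjusted p over all tested genes of the table was under 0.05. Differences on this scale understate changes of genes near or below 1 FPKM. Tables were normalised separately, so no level or effect was tested between them.

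Mouse start sites of Cdkn2a and Cdkn2b are shown first, since both genes were abundant in the mouse samples and fell with the combination. RefSeq on build GRCm38.p6 gave 9 promoter windows of 250 bases upstream of a start site for 6 of the 7 genes, with no entry for Cdkn1c, and human windows are not used here. Each sequence is written 5′ to 3′ on the gene's own strand, with letters of a matched motif in capitals. The first Cdkn2a window lies before the exon that starts ARF (chr4:89294620-89294869, minus strand) and the second before the exon that starts p16INK4a (chr4:89282193-89282442, minus strand). The Cdkn2b window is chr4:89311033-89311282 on the minus strand.
Cdkn2a, ARF side: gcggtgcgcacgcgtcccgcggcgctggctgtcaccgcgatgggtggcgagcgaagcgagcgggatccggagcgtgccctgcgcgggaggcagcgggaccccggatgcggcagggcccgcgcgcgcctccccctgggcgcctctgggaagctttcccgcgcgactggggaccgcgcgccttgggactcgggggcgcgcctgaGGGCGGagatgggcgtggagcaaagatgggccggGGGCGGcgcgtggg
Cdkn2a, p16INK4a side: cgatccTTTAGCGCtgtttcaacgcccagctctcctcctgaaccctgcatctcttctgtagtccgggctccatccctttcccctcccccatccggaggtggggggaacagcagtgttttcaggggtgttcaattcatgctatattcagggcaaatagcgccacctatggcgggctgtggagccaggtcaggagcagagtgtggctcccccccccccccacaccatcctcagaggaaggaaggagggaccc
Cdkn2b: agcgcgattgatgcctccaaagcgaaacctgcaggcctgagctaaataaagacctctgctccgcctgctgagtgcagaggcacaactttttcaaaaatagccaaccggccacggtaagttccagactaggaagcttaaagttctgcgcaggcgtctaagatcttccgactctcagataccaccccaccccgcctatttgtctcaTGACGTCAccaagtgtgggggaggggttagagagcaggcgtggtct
Capitals mark 2 GC boxes (GGGCGG) at 48 and 14 bases before the start on the ARF side, an E2F site (TTTNGCGC) at 244 bases on the p16INK4a side and a cyclic AMP response element (TGACGTCA) at 46 bases in Cdkn2b. Both strands were searched. Of 32851 mouse promoter windows of this length, 32.7% held a GC box, 1.13% the E2F site and 1.55% the cyclic AMP element. The ARF-side window held 40 CpG dinucleotides and 78.4% G and C, where the median window held 6 CpG. The p16INK4a side held 7 CpG and Cdkn2b 12. GC boxes were also matched in windows of Cdkn2c, Cdkn1b and Cdkn2d, and CCAAT boxes, present in 33.8% of all windows, in Cdkn1b and Cdkn2d. Matches in the Cdkn1a windows are not reported here. These matches are letters in a window and say nothing of what binds there.

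RMC-6236 raised all 3 CIP/KIP genes in both human lines, with CDKN1C ahead, and raised CDKN2C there as well, while in KPC cells it raised Cdkn1b alone and lowered 5 of the inhibitors. Tazemetostat raised CDKN1A and CDKN1C in each of the 3 lines. In KPC cells and tumours, where Cdkn2a was the most abundant inhibitor transcript, the combination lowered Cdkn2a and Cdkn2b and raised Cdkn1c. In SW1990 cells, KPC cells and tumours this gene had 0 control libraries at 1 FPKM and was tested only because treated libraries reached that level, so its calls there are a description. No inhibitor was called in tumours given tazemetostat.

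With tazemetostat, 4 of 6 tested members were called higher and 1 lower in PSN1 cells, where 46.0% of all tested genes were called (23.6% higher, 22.5% lower). In SW1990 cells 3 of 5 were higher and 0 lower, against 37.5% (23.1% and 14.4%), and in KPC cells 3 of 7 were higher and 1 lower, against 44.1% (18.6% and 25.5%). RMC-6236 gave 5 higher and 1 lower in PSN1 cells, against 80.4% of all genes (45.8% higher, 34.6% lower), and 4 higher and 0 lower in SW1990 cells, against 72.4% (30.7% and 41.7%). In KPC cells 1 was higher and 5 lower, against 73.7% (37.9% and 35.8%), and in tumours 1 higher and 1 lower of 7, against 39.4% (20.3% and 19.2%). For the combination the counts were 4 higher and 2 lower in PSN1 cells, against 82.6% (45.5% and 37.1%), and 4 higher and 0 lower in SW1990 cells, against 79.2% (38.3% and 40.9%). In KPC cells it gave 3 higher and 4 lower, against 76.4% (37.8% and 38.7%), and in tumours 3 higher and 2 lower, against 52.4% (26.7% and 25.7%). Most genes of the cell lines were called with RMC-6236 and with the combination, so there the direction and size of the members' differences carry the description and not their number. Where CDKN1C was called in SW1990 cells, KPC cells and tumours, the counts include it, though it was tested there only through treated libraries. In tumours given tazemetostat limma called 0 of 7 members and 0 of 13545 genes (0%), with 0 members and 1023 genes at an unadjusted p under 0.05, and the other settings of the fit gave 0 or 1 gene.

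**Figure D1:**
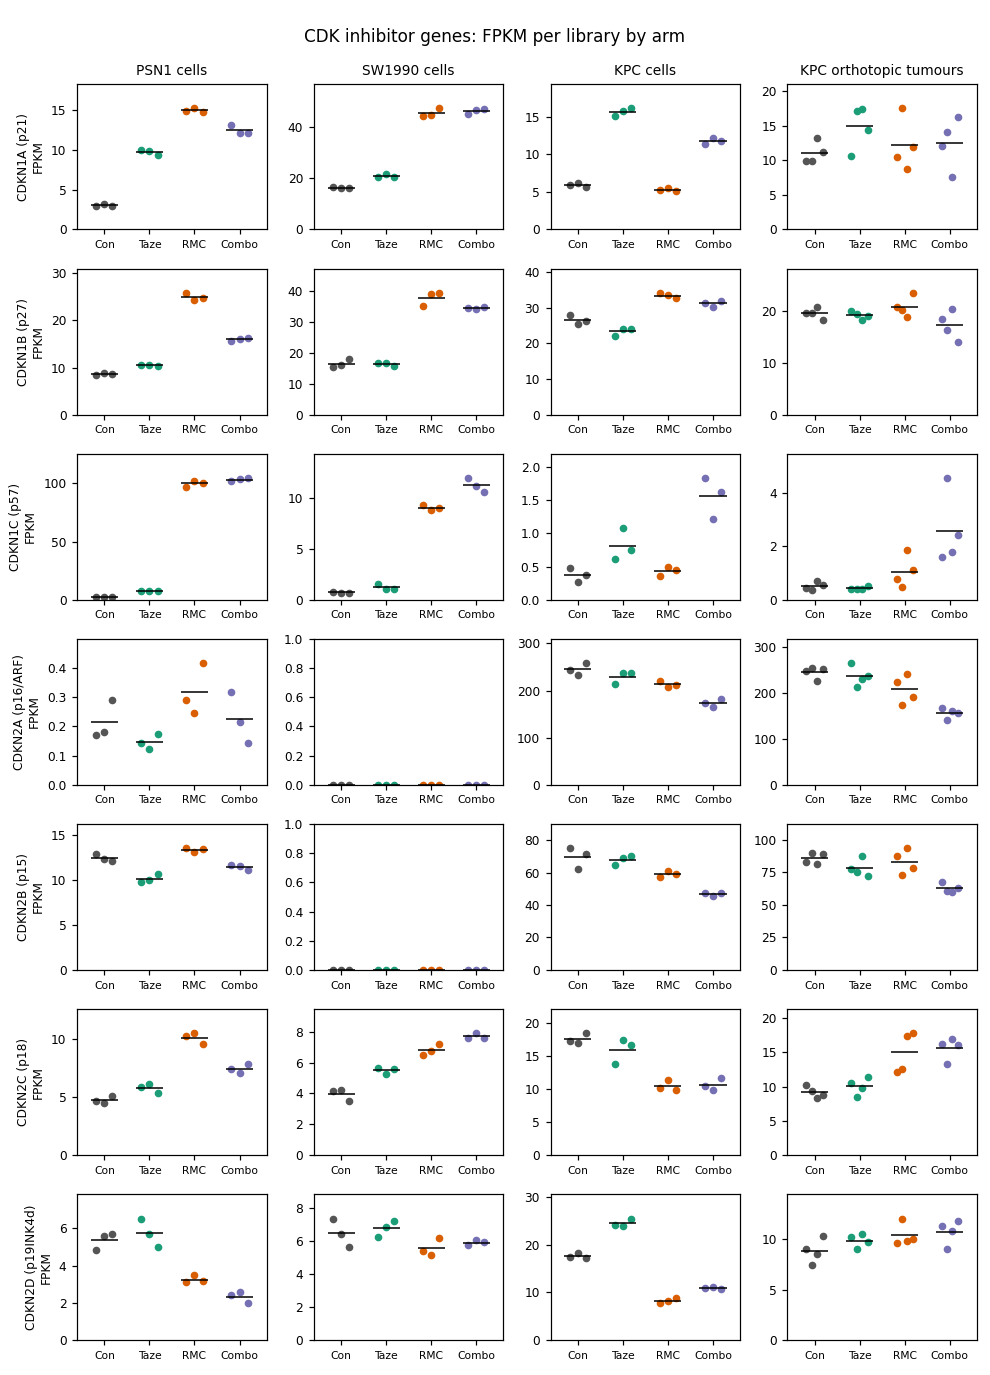
Level of the 7 CDK inhibitor genes in each library, in FPKM on linear axes from 0 that differ between panels, with 1 row per gene, 1 column per table, points for libraries, black bars for arm means and the arms control (Con), tazemetostat (Taze), RMC-6236 (RMC) and combination (Combo). CDKN1C in PSN1 cells stands at about 2.57 FPKM in control and 100 FPKM with RMC-6236, and CDKN2A and CDKN2B lie on 0 in SW1990 cells.

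CDKN1A (p21), the CIP/KIP inhibitor known for stress-induced arrest, rose with tazemetostat in all 3 lines. With RMC-6236 it rose in both human lines and was slightly lower in KPC cells, a difference between lines that was not tested. Its level in PSN1 cells was 2.99, 3.25 and 2.98 FPKM in the DMSO arm. Tazemetostat libraries had 9.999, 9.79 and 9.37 FPKM, RMC-6236 libraries 14.9, 15.2 and 14.6, and combination libraries 13.1, 12.04 and 12.1. No arm overlapped another, and the combination lay between the single drugs. The differences from control were 1.40 ± 0.04 (SE, n = 3, limma adjusted p = 4.8e-11) with tazemetostat, 1.97 ± 0.04 (limma adjusted p = 1.7e-13) with RMC-6236 and 1.72 ± 0.04 (limma adjusted p = 3.8e-13) with both. In SW1990 cells CDKN1A was 16.4, 16.002 and 16.1 FPKM in control, 20.5, 21.5 and 20.3 with tazemetostat, 44.2, 44.6 and 47.3 with RMC-6236 alone and 45.1, 46.6 and 46.7 with both. Tazemetostat libraries stood just above control, and the RMC-6236 and combination libraries overlapped at a level 2.81 and 2.86 times the control mean. The gene gained 0.35 ± 0.04 with tazemetostat (limma adjusted p = 9.1e-06) and 1.43 ± 0.04 with RMC-6236 (limma adjusted p = 1.5e-12).

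KPC cells differed in the order of their arms. Cdkn1a was 5.90, 6.14 and 5.62 FPKM in control, 15.1, 15.8 and 16.2 with tazemetostat, 5.20, 5.50 and 5.09 with RMC-6236 alone and 11.3, 12.1 and 11.8 with both. Tazemetostat gave the highest libraries, the combination came next, and RMC-6236 libraries were all slightly below control. The gain with tazemetostat was 1.28 ± 0.04 (limma adjusted p = 5.3e-10) and the difference with RMC-6236 was -0.14 ± 0.04 (limma adjusted p = 0.012). Without control replicate 2 the RMC-6236 difference was -0.11, with an adjusted p of 0.053. Tumours showed a wide spread: Cdkn1a was 9.88, 9.95, 13.2 and 11.2 FPKM with vehicle, 10.6, 17.2, 17.4 and 14.4 with tazemetostat, 10.5, 17.6, 8.75 and 11.9 with RMC-6236 and 12.1, 14.1, 7.66 and 16.3 with both. All 4 arms overlapped, and limma's adjusted p was 0.73, 0.76 and 0.64 for the 3 treated arms against vehicle.

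CDKN1B (p27), which restrains cyclin E-CDK2 in quiescent cells, rose with RMC-6236 in each of the 3 lines. PSN1 cells had 8.51, 8.81 and 8.53 FPKM in control, 10.6, 10.6 and 10.3 with tazemetostat, 25.8, 24.4 and 24.9 with RMC-6236 alone and 15.7, 16.1 and 16.3 with both. The RMC-6236 libraries were the highest, and adding tazemetostat brought the level down, by 0.61 ± 0.03 on the log2 scale against RMC-6236 alone (limma adjusted p = 1.7e-09). In SW1990 cells CDKN1B was 15.3, 16.01 and 18.03 FPKM in control, 16.8, 16.5 and 15.7 with tazemetostat, 35.0, 39.1 and 39.2 with RMC-6236 alone and 34.4, 34.2 and 34.8 with both. Control and tazemetostat overlapped (-0.01 ± 0.06, limma adjusted p = 0.92), and both arms with RMC-6236 lay above them, by 1.15 ± 0.06 and 1.03 ± 0.06. The combination was below RMC-6236 by -0.13 ± 0.06 (limma adjusted p = 0.089), a difference that passed the threshold when libraries were rescaled (-0.17, adjusted p = 0.0085), and without control replicate 3 or RMC-6236 replicate 1 (adjusted p of 0.042 and 0.016).

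In KPC cells Cdkn1b was 27.9, 25.6 and 26.4 FPKM in control, 22.2, 24.1 and 24.1 with tazemetostat, 34.1, 33.5 and 32.7 with RMC-6236 alone and 31.4, 30.3 and 32.0 with both. Tazemetostat libraries were the lowest and RMC-6236 libraries the highest, with no overlap between arms. The differences were small beside those of the human lines: -0.18 ± 0.04 with tazemetostat (limma adjusted p = 0.0035), 0.32 ± 0.04 with RMC-6236 (limma adjusted p = 1.1e-05) and 0.22 ± 0.04 with both (limma adjusted p = 0.00024). Tumour libraries ranged from 14.0 to 23.5 FPKM over all arms, and no Cdkn1b comparison with vehicle was called (limma adjusted p of 0.96, 0.52 and 0.11). Leaving out combination replicate 3 gave -0.26 with an adjusted p of 0.022 for the combination.

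CDKN1C (p57), the imprinted CIP/KIP gene, showed the largest differences of the tested members in the human lines with RMC-6236 and with the combination. PSN1 cells had 2.59, 2.57 and 2.54 FPKM in the DMSO arm, 7.07, 7.09 and 7.60 with tazemetostat, 97.3, 102 and 101 with RMC-6236 alone and 102, 104 and 105 with both. The RMC-6236 mean was 39.0 times and the combination mean 40.3 times the control mean, and tazemetostat libraries lay 2.82 times above it. On the log2 scale the gains were 1.21 ± 0.03 (limma adjusted p = 1.1e-11), 4.82 ± 0.03 (limma adjusted p = 1.5e-17) and 4.87 ± 0.03 (limma adjusted p = 6e-18) with tazemetostat, RMC-6236 and both. RMC-6236 and the combination differed by 0.05 ± 0.03 (limma adjusted p = 0.19), which was called after rescaling (0.08, adjusted p = 0.021). SW1990 cells started lower, at 0.772, 0.648 and 0.700 FPKM in control, and had 1.58, 1.06 and 1.06 with tazemetostat, 9.28, 8.77 and 8.95 with RMC-6236 alone and 11.9, 11.1 and 10.6 with both. No control library there reached 1 FPKM, so the gene was tested through its treated arms, whose libraries all exceeded control. The gains were 0.38 ± 0.08 (limma adjusted p = 0.0023), 2.55 ± 0.08 (limma adjusted p = 1.2e-11) and 2.84 ± 0.08 (limma adjusted p = 1.7e-12).

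Cdkn1c was near the limit of detection in KPC cells, at 0.471, 0.264 and 0.369 FPKM in control, 0.613, 1.08 and 0.752 with tazemetostat, 0.363, 0.489 and 0.451 with RMC-6236 alone and 1.83, 1.22 and 1.62 with both. Only 4 libraries reached 1 FPKM, the 3 of the combination and 1 with tazemetostat, so the gene passed the filter through the arms where it was high. RMC-6236 alone overlapped control (0.07 ± 0.11, limma adjusted p = 0.58), tazemetostat libraries lay above it (0.40 ± 0.11, limma adjusted p = 0.0096) and combination libraries above all others (0.90 ± 0.11, limma adjusted p = 6e-06). With a pseudocount of 0.1 in place of 1 the combination difference was 1.83. Tumours had 0.421, 0.355, 0.696 and 0.560 FPKM with vehicle, 0.412, 0.416, 0.399 and 0.498 with tazemetostat, 0.785, 0.466, 1.86 and 1.11 with RMC-6236 and 1.60, 4.56, 1.80 and 2.43 with both. Again the filter was passed through 6 libraries, 4 of the combination and 2 of RMC-6236, and each combination library exceeded each vehicle and tazemetostat library. The combination differed from vehicle by 1.19 ± 0.22 (n = 4, limma adjusted p = 0.00032), by 0.96 without combination replicate 2, its highest library, and by 2.06 with a pseudocount of 0.1. RMC-6236 alone gave 0.41 ± 0.22 (limma adjusted p = 0.15). The combination against RMC-6236 was called (0.78 ± 0.22, limma adjusted p = 0.036) but not without combination replicate 2 (0.55, adjusted p = 0.084) nor without RMC-6236 replicates 1, 2 or 4 or combination replicate 4 (adjusted p of 0.092, 0.094, 0.068 and 0.083).

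Marker sums of several cell types in the tumours moved with the same arms. Summed over 6 epithelial markers, the median level was 3211 FPKM with vehicle (3111 to 3882), 1520 with RMC-6236 (1445 to 2022) and 1278 with the combination (840 to 1399). Over 10 fibroblast markers it was 1105 (872 to 1184), 3155 (3030 to 4046) and 3781 (3390 to 3979), and over 8 macrophage markers 523 (462 to 591), 1412 (1139 to 1643) and 1577 (1480 to 2054). All 10 fibroblast and all 8 macrophage markers reached 1 FPKM in tumours, none of them was at 0 throughout, and none of 6 T cell markers reached 1 FPKM. The sum of 8 acinar markers was 11.02 to 36.5 FPKM with vehicle, 6.51 to 265 with tazemetostat, 5.02 to 74.3 with RMC-6236, and 543, 936, 74.5 and 2565 in combination replicates 1 to 4. In cultured KPC cells the epithelial sum was 3362.5 to 3492 FPKM in control, 2849 to 2883 with RMC-6236 and 2857 to 2928 with both. With tazemetostat it was 4822 to 4968 FPKM there. The part of the marked cell types in any tumour result for the inhibitors was not tested. In bulk tissue fewer cells of a type and less RNA per cell cannot be told apart.

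**Figure D2:**
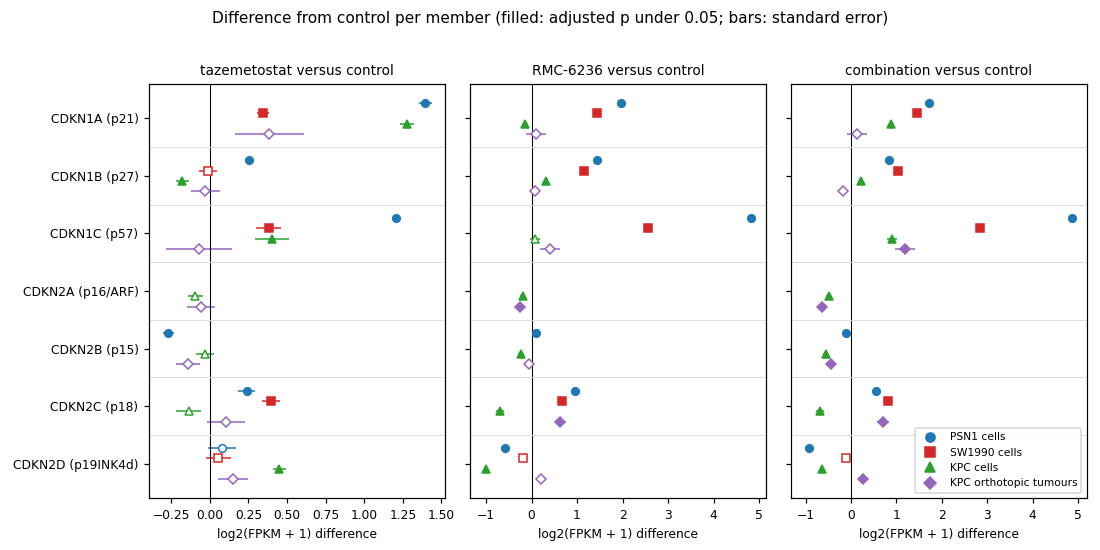
Difference from control of each tested inhibitor on the log2(FPKM + 1) scale (horizontal axis, scale differs between panels) for tazemetostat, RMC-6236 and the combination, with colour and shape for the table. Filled symbols had an adjusted p under 0.05, and bars are standard errors. CDKN1C in PSN1 cells lies farthest right with RMC-6236 (4.82) and with the combination (4.87), and Cdkn2a and Cdkn2b of KPC cells and tumours lie left of 0 with the combination.

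Among the INK4 genes, CDKN2A was at or near 0 FPKM in the human lines and abundant in the mouse samples. Whether the gene was deleted or not transcribed in the human lines was not tested. One gene-level value covers both of its products, p16INK4a and ARF, which use different first exons. All 12 SW1990 libraries listed CDKN2A at 0, and CDKN2B was also listed at 0 in all 12. In PSN1 cells CDKN2A was 0.171, 0.180 and 0.290 FPKM in control, 0.142, 0.123 and 0.175 with tazemetostat, 0.289, 0.246 and 0.416 with RMC-6236 alone and 0.319, 0.216 and 0.142 with both. These levels were under the filter in each library and were not tested.

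KPC cells had 244, 233 and 258 FPKM of Cdkn2a in control, 215, 237 and 237 with tazemetostat, 220, 207 and 213 with RMC-6236 alone and 173, 165 and 182 with both. Tazemetostat overlapped control (-0.09 ± 0.05, limma adjusted p = 0.14), RMC-6236 libraries lay below it (-0.20 ± 0.05, limma adjusted p = 0.0027), and combination libraries lay below all others (-0.50 ± 0.05, limma adjusted p = 7.9e-07). Tumours carried 249, 256, 226 and 253 FPKM with vehicle, 265, 214, 231 and 237 with tazemetostat, 225, 175, 241 and 192 with RMC-6236 and 167, 142, 162 and 157 with both. There too each combination library was below each library of the other arms, with a difference from vehicle of -0.65 ± 0.09 (limma adjusted p = 4.3e-05). The RMC-6236 difference of -0.25 ± 0.09 (limma adjusted p = 0.047) was at the threshold, was lost in 10 of 16 fits that left out a library, and without RMC-6236 replicate 2 stood at -0.17 with an adjusted p of 0.15. Against RMC-6236 alone the combination was lower by -0.40 ± 0.09 (limma adjusted p = 0.015), with an adjusted p of 0.051 without RMC-6236 replicate 1 and 0.050 without combination replicate 2. Epithelial marker sums were lower in the same tumour arms, and their part in the tumour result was not tested. In cultured KPC cells the fibroblast marker sum was 41.5 to 42.5 FPKM in control, 67.1 to 68.6 with RMC-6236 and 53.3 to 56.0 with both, and the macrophage sum was 14.9 to 15.4, 9.44 to 10.7 and 7.29 to 8.05. The part of these genes in the Cdkn2a result was not tested.

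CDKN2B (p15) is the neighbour of CDKN2A and a mediator of arrest by TGF-beta. PSN1 cells had 12.9, 12.4 and 12.1 FPKM in control, 9.76, 10.04 and 10.7 with tazemetostat, 13.5, 13.1 and 13.5 with RMC-6236 alone and 11.6, 11.6 and 11.2 with both. Arms did not overlap, but the range was narrow: -0.27 ± 0.04 with tazemetostat (limma adjusted p = 5e-05), 0.10 ± 0.04 with RMC-6236 (limma adjusted p = 0.024) and -0.11 ± 0.04 with both (limma adjusted p = 0.013). The RMC-6236 call was lost after rescaling (0.07, adjusted p = 0.081) and without control replicate 2 or 3 or RMC-6236 replicate 1 or 3 (adjusted p of 0.059, 0.094, 0.069 and 0.064). That of the combination was lost without control replicate 1 or combination replicate 3 (adjusted p of 0.061 and 0.056). Counting strand is not stated, and the antisense transcript CDKN2B-AS1 overlaps the gene at 0.127 to 0.362 FPKM in these libraries.

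In KPC cells Cdkn2b was 74.9, 62.1 and 71.8 FPKM in control, 64.6, 68.7 and 70.4 with tazemetostat, 57.3, 60.7 and 59.1 with RMC-6236 alone and 47.5, 45.4 and 47.3 with both. Libraries given RMC-6236 were below control and those given both drugs were lower again, by -0.23 ± 0.06 (limma adjusted p = 0.0029) and -0.56 ± 0.06 (limma adjusted p = 1.2e-06). Tumours had 83.1, 89.9, 81.7 and 89.2 FPKM with vehicle, 77.7, 75.0, 87.4 and 72.1 with tazemetostat, 87.7, 73.1, 93.4 and 78.3 with RMC-6236 and 67.3, 61.0, 59.8 and 62.9 with both. Combination tumours formed the lowest group without overlap (-0.45 ± 0.08, limma adjusted p = 0.00019), and RMC-6236 alone overlapped vehicle (-0.05 ± 0.08, limma adjusted p = 0.61).

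CDKN2C (p18) rose with RMC-6236 in both human lines and in tumours and fell in KPC cells. PSN1 cells had 4.63, 4.50 and 5.09 FPKM in control, 5.90, 6.13 and 5.32 with tazemetostat, 10.3, 10.5 and 9.58 with RMC-6236 alone and 7.40, 7.08 and 7.88 with both. RMC-6236 libraries were highest and no arms overlapped. The gains were 0.24 ± 0.06 (limma adjusted p = 0.0039), 0.96 ± 0.06 (limma adjusted p = 4.9e-09) and 0.56 ± 0.06 (limma adjusted p = 9.1e-07). In SW1990 cells the gene was at 4.18, 4.19 and 3.50 FPKM in control, 5.65, 5.25 and 5.62 with tazemetostat, 6.49, 6.78 and 7.19 with RMC-6236 alone and 7.63, 7.90 and 7.61 with both. Here the combination was the highest arm, 0.82 ± 0.06 above control (limma adjusted p = 2.7e-08), and RMC-6236 alone gave 0.66 ± 0.06 (limma adjusted p = 3.8e-07).

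Cdkn2c in KPC cells was 17.3, 16.9 and 18.5 FPKM in control, 13.8, 17.5 and 16.7 with tazemetostat, 10.2, 11.4 and 9.83 with RMC-6236 alone and 10.4, 9.80 and 11.6 with both. Both arms with RMC-6236 overlapped each other and lay below control, by -0.69 ± 0.08 (limma adjusted p = 7.2e-06) and -0.68 ± 0.08 (limma adjusted p = 7.4e-06). KPC tumours had 10.3, 9.42, 8.35 and 8.80 FPKM of Cdkn2c with vehicle, 10.6, 8.47, 9.75 and 11.4 with tazemetostat, 12.1, 12.6, 17.5 and 17.8 with RMC-6236 and 16.2, 13.2, 17.0 and 16.1 with both. All 8 tumours given RMC-6236, alone or combined, exceeded all 8 others, with differences of 0.63 ± 0.12 (limma adjusted p = 0.0011) and 0.70 ± 0.12 (limma adjusted p = 0.00024). The difference in direction between cells and tumours was not tested, and the part of fibroblasts and macrophages, whose marker sums were higher in the same arms, was not tested either.

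CDKN2D (p19INK4d), whose level normally peaks in S phase, fell with RMC-6236 in PSN1 and KPC cells. PSN1 cells had 4.82, 5.60 and 5.69 FPKM in control, 6.53, 5.71 and 5.003 with tazemetostat, 3.11, 3.50 and 3.15 with RMC-6236 alone and 2.43, 2.61 and 1.97 with both. Combination libraries were the lowest and tazemetostat overlapped control. RMC-6236 lowered the level by -0.58 ± 0.09 (limma adjusted p = 7.1e-05) and the combination by -0.93 ± 0.09 (limma adjusted p = 7.9e-07). The SW1990 libraries ranged from 5.20 to 7.39 FPKM, overlapped between arms and gave no call (limma adjusted p of 0.62, 0.06 and 0.22). Without control replicate 3 the SW1990 difference with RMC-6236 was -0.26 (adjusted p = 0.011) and that of the combination -0.19 (adjusted p = 0.044), and without RMC-6236 replicate 3 the former was -0.25 (adjusted p = 0.02).

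In KPC cells Cdkn2d was 17.5, 18.4 and 17.2 FPKM in control, 24.1, 23.96 and 25.5 with tazemetostat, 7.89, 8.13 and 8.88 with RMC-6236 alone and 10.8, 11.2 and 10.8 with both. The 4 arms were fully apart, with tazemetostat above control by 0.45 ± 0.04 (limma adjusted p = 4.3e-06) and RMC-6236 below it by -1.01 ± 0.04 (limma adjusted p = 2.7e-10). The combination stood between RMC-6236 and control, at -0.64 ± 0.04 (limma adjusted p = 1.7e-08). Tumour libraries overlapped, from 7.45 to 10.3 FPKM with vehicle and from 9.03 to 11.8 with both. The combination was called there at 0.26 ± 0.10 (limma adjusted p = 0.032), and it was lost in 5 of 16 fits that left out a library, with 0.19 and an adjusted p of 0.10 without vehicle replicate 2.

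Summed over the 7 genes, the FPKM of every treated library exceeded those of control in both human lines. In KPC cells the RMC-6236 and combination libraries, and in tumours the combination libraries, lay below control, while the other treated arms of the mouse samples overlapped it. These sums were not tested. FPKM is scaled by transcript length, so levels of the genes can be set side by side within a table. The sum in PSN1 cells was 37.0 ± 0.382 FPKM (SD, n = 3) in control, 49.3 ± 0.783 with tazemetostat, 167 ± 1.91 with RMC-6236 alone and 153 ± 0.776 with both. CDKN1C supplied 6.93% of that sum in control, 14.7% with tazemetostat, 59.9% with RMC-6236 alone and 67.4% with both. CDKN2B, the largest member in control at 33.6%, supplied 7.998% with RMC-6236. In SW1990 cells the sum was 43.8 ± 0.412 in control and 105 ± 4.23 with RMC-6236, and CDKN1A and CDKN1B together made up most of it in each arm, with 36.9% and 37.6% in control. KPC cells carried 383 ± 18.1 FPKM in control, 378 ± 19.9 with tazemetostat, 330 ± 4.41 with RMC-6236 alone and 286 ± 11.1 with both, and tumours 381 ± 15.05, 369 ± 21.4, 351 ± 35.2 and 279 ± 13.8. Cdkn2a supplied 64.0% of the sum in KPC control cells and 64.5% in vehicle tumours, and Cdkn2b 18.2% and 22.6%.

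In control arms the order of levels was CDKN2B, CDKN1B, CDKN2D, CDKN2C, CDKN1A, CDKN1C and CDKN2A in PSN1 cells. Ranges of CDKN2C (4.50 to 5.09 FPKM) and CDKN2D (4.82 to 5.69) overlapped, as neighbours, and the others were apart. In SW1990 cells CDKN1B and CDKN1A overlapped at the top, followed by CDKN2D, CDKN2C and CDKN1C. KPC control cells ran from Cdkn2a over Cdkn2b and Cdkn1b to Cdkn2d and Cdkn2c, which overlapped (17.2 to 18.4 against 16.9 to 18.5 FPKM), then Cdkn1a and Cdkn1c. Vehicle tumours began in the same way, with Cdkn2a, Cdkn2b and Cdkn1b, and then held Cdkn1a (9.88 to 13.2), Cdkn2c (8.35 to 10.3) and Cdkn2d (7.45 to 10.3), which overlapped, and Cdkn1c last.

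The combination was compared with RMC-6236 alone and with the sum of both single-drug differences. Against RMC-6236, 5 of 6 members were lower and 0 higher in PSN1 cells, where 54.2% of all tested genes were called (24.1% higher, 30.1% lower). In SW1990 cells 2 of 5 were higher and 0 lower, against 48.0% (29.8% and 18.3%), and in KPC cells 3 were higher and 2 lower, against 48.8% (20.3% and 28.5%). In tumours 1 was higher and 2 lower, against 8.13% (5.16% and 2.97%). CDKN1C is among the higher members in SW1990 cells, KPC cells and tumours, where it was tested only through treated libraries. The 3 members higher in KPC cells were Cdkn1a (1.03 ± 0.04), Cdkn1c (0.83 ± 0.11) and Cdkn2d (0.36 ± 0.04), and the 2 lower were Cdkn2a (-0.30 ± 0.05) and Cdkn2b (-0.33 ± 0.06). In tumours Cdkn1c was higher and Cdkn2a and Cdkn2b (-0.40 ± 0.08, limma adjusted p = 0.0049) were lower, while Cdkn1a (0.04 ± 0.22) and Cdkn2d (0.04 ± 0.10) were not called. The 2 SW1990 members, CDKN1C (0.28 ± 0.08, limma adjusted p = 0.01) and CDKN2C (0.16 ± 0.06, limma adjusted p = 0.047), both failed with a pseudocount of 0.1 (adjusted p of 0.054 and 0.059), and CDKN2C was lost in 8 of 12 fits that left out a library.

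The interaction term is the combination difference minus the sum of the single-drug differences, so a term below 0 is a smaller gain for a gene that rose and a deeper fall for one that fell. In PSN1 cells 5 of 6 members were called with a term below 0 and 0 with a term above 0, where 23.6% of all tested genes were called (9.80% higher, 13.8% lower): CDKN1A at -1.64 ± 0.06 (limma adjusted p = 8.6e-10), CDKN1C at -1.16 ± 0.04 (limma adjusted p = 1e-09), CDKN1B at -0.87 ± 0.04, CDKN2C at -0.64 ± 0.08 and CDKN2D at -0.43 ± 0.13 (limma adjusted p = 0.028). The CDKN2D term had an adjusted p of 0.055 to 0.068 in 5 fits that left out control replicate 1, tazemetostat replicate 1 or 2, RMC-6236 replicate 2 or combination replicate 3. For CDKN2D the single differences were 0.08 and -0.58 and that of the combination was -0.93, a deeper fall than their sum. For CDKN1A, each drug alone raised the gene, and the combination stayed below RMC-6236. SW1990 cells had 1 such member of 5, CDKN1A (-0.32 ± 0.05, limma adjusted p = 0.00092), against 15.2% of all genes called (9.03% higher, 6.19% lower). KPC cells had 3 of 7, against 25.8% (12.1% higher, 13.7% lower): Cdkn1a (-0.25 ± 0.06, limma adjusted p = 0.0095), Cdkn2b (-0.30 ± 0.08, limma adjusted p = 0.017) and Cdkn2a (-0.21 ± 0.07, limma adjusted p = 0.043). For Cdkn2a and Cdkn2b the negative term goes with a deeper fall, and the Cdkn2a term was lost in 8 of 12 fits that left out a library (adjusted p of 0.071 to 0.098), and both terms were lost with no filter on low values (adjusted p of 0.12 and 0.056). Tumours had 0 of 7 members called by limma (1.86% of all genes, 1.49% higher and 0.369% lower), with 3 at an unadjusted p under 0.05. They were Cdkn1c at 0.85 ± 0.30 (limma adjusted p = 0.19), Cdkn2a at -0.34 ± 0.13 (limma adjusted p = 0.23) and Cdkn2b at -0.26 ± 0.11 (limma adjusted p = 0.29). Cdkn1c was tested there only through treated libraries.

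**Figure D3:**
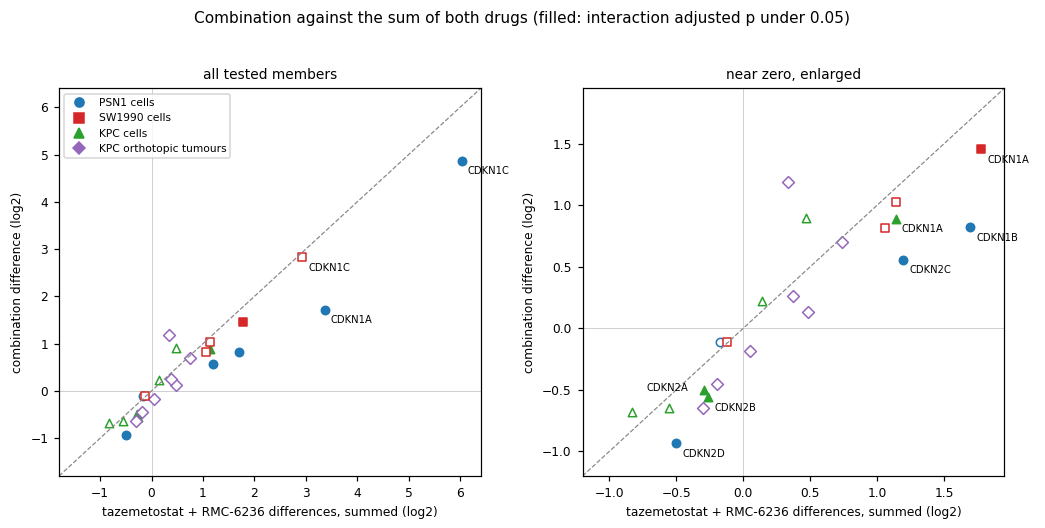
Combination difference from control (vertical) against the sum of the tazemetostat and RMC-6236 differences (horizontal), both on the log2(FPKM + 1) scale, for each tested inhibitor, with a second panel enlarging the region near 0. Colour and shape give the table, filled symbols had an interaction adjusted p under 0.05, and the dashed line marks equality. CDKN1A and CDKN1C of PSN1 cells lie 1.64 and 1.16 below the line.

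Transcripts of cyclins and CDKs, on which these inhibitors act, and of RB proteins and CDC25A were examined as a list of 13 genes. With RMC-6236, which called 80.4%, 72.4% and 73.7% of all tested genes in the 3 lines, 10 of 12 fell and 2 rose in PSN1 cells (median -1.02, against 0.08 for all tested genes), 10 of 13 fell and 2 rose in SW1990 cells (-0.56, against -0.06) and 11 of 13 fell and 2 rose in KPC cells (-0.81, against 0.02). CDC25A, the phosphatase that activates CDK2, fell by 2.69 in PSN1 cells and fell by 1.47 in SW1990 cells, and the cyclin D1 gene CCND1 fell by 1.70 in PSN1 cells, and Ccnd1 fell by 2.12 in KPC cells. Of 18 E2F targets and proliferation genes, all 18 fell in PSN1 cells (median -1.52), 13 in SW1990 cells (-1.06) and all 18 in KPC cells (-1.74), with CDC6 at -2.54 in PSN1, MCM3 at -1.46 in SW1990 and Top2a at -2.08 in KPC cells. Of all tested genes 34.6%, 41.7% and 35.8% were called lower in these lines. In the same RMC-6236 arms CDKN1B was higher in each line, and Cdkn2a, Cdkn2b, Cdkn2c and Cdkn2d of KPC cells were lower.

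In tumours RMC-6236 left 3 of 18 E2F targets higher and 1 lower (median 0.09), where 20.3% and 19.2% of all tested genes were called higher and lower. The combination left 14 higher and 0 lower (median 0.37, against -0.00 for all tested genes, of which 26.7% and 25.7% were called), with Mcm5 at 0.82 ± 0.12, Tyms at 0.67 ± 0.12 and Bub1 at 0.62 ± 0.15. Of the D cyclins in tumours, Ccnd2 fell by 1.39 and Ccnd1 fell by 1.35 with RMC-6236, Ccnd3 was not called (0.08), and with both drugs Ccnd2 fell by 1.77 and Ccnd1 fell by 1.45. Cdkn1c rose and Cdkn2a and Cdkn2b fell in the same combination tumours, whose fibroblast, macrophage and acinar marker sums also stood above vehicle. So did the sums of 5 neutrophil markers, at 37.0 to 198 FPKM against 6.76 to 27.9, and of 6 endothelial markers, at 19.5 to 30.9 against 7.15 to 13.9. The sum of 6 islet markers was 43.4, 198, 0.277 and 736 FPKM in combination replicates 1 to 4 and 3.01 to 11.8 with vehicle. The part of those cells in the E2F target and inhibitor values was not tested.

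**Figure D4:**
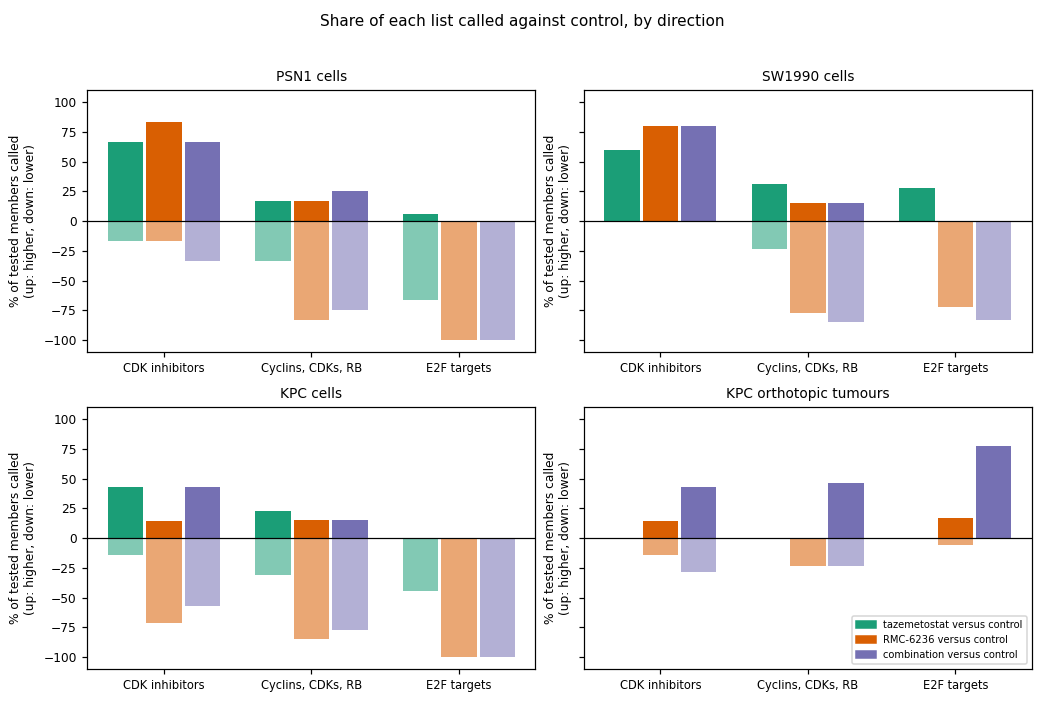
Share of tested genes called higher (above 0) or lower (below 0, paler) against control, in percent, for the 7 CDK inhibitors and for lists of cyclins, CDKs and RB proteins and of E2F targets, with 1 panel per table and 1 colour per treated arm. With RMC-6236 18, 13 and 18 of 18 E2F targets are lower in PSN1, SW1990 and KPC cells, and 14 of 18 are higher in combination tumours. Of all tested genes 34.6%, 41.7% and 35.8% were lower in those lines and 26.7% higher in those tumours.

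Of the genes for the degradation of p21, p27 and p57, RMC-6236 left 4 higher and 4 lower of 10 in PSN1 cells (80.4% of all tested genes were called), 0 and 7 of 10 in SW1990 cells (72.4%), 1 and 5 of 9 in KPC cells (73.7%) and 2 and 2 of 9 in tumours (39.4%). The list's share called was near that of all genes, and its median in PSN1 cells was 0.012, against 0.077 for all genes. Among the members of largest change with RMC-6236, DTL, the CUL4 adaptor for p21, fell by 2.23 in PSN1 cells and fell by 1.39 in SW1990 cells, and Dtl fell by 1.19 in KPC cells. SKP2, the F-box protein that targets p27, differed by -1.03 and -0.77 in PSN1 and SW1990 cells and Skp2 by -1.04 in KPC cells, and its cofactor CKS1B by -1.40 and -0.37 and Cks1b by -1.60, all called. In combination tumours Skp2 rose by 0.37 ± 0.11 (limma adjusted p = 0.0098). These values are RNA levels, inhibitor protein was not measured, and the part of these genes in its level was not tested.

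Among 20 transcriptional regulators of the inhibitors, RMC-6236 raised 10 and lowered 7 of 19 tested in PSN1 cells, 7 and 8 of 19 in SW1990 cells, 7 and 7 of 18 in KPC cells and 4 and 6 of 18 in tumours. Of all tested genes 80.4%, 72.4%, 73.7% and 39.4% were called in the same tables, so the number of regulators called is no result about them. MYC, a repressor of CDKN1A and CDKN2B, fell in all 4 tables (-1.56 in PSN1 and -1.61 in SW1990 cells, and for Myc -1.10 in KPC cells and -1.24 in tumours). In those arms CDKN1A and CDKN2B were called higher in PSN1 cells (1.97 and 0.10). CDKN1A was also called higher in SW1990 cells (1.43), where CDKN2B was not tested. Cdkn1a and Cdkn2b were called lower in KPC cells (-0.14 and -0.23) and not called in tumours (0.10 and -0.05). The forkhead gene FOXO4, an activator of CDKN1B, rose by 1.39 in PSN1 and 0.73 in SW1990 cells, and FOXO3 rose by 0.60 and 0.32 there and Foxo3 by 0.73 in KPC cells and 0.42 in tumours. With tazemetostat the polycomb gene BMI1, a repressor of the CDKN2A locus, rose by 0.50 in PSN1 and 1.32 in SW1990 cells, and Bmi1 rose by 0.68 in KPC cells and was not called in tumours (-0.05). Tbx2, a T-box repressor of Cdkn2a and Cdkn1a, rose by 0.52 with tazemetostat and fell by 1.85 with RMC-6236 in KPC cells. The methyltransferase gene EZH2 fell under RMC-6236 in PSN1 (-0.64) and SW1990 cells (-0.61), and Ezh2 in KPC cells (-0.81). With tazemetostat EZH2 rose by 0.41 in SW1990 cells and was not called elsewhere (-0.04 in PSN1 cells, and for Ezh2 -0.07 in KPC cells and 0.25 in tumours). FOXO3 and EZH2 were singled out after their values were seen. The part of any of these regulators in the values of the inhibitors was not tested.

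The neighbours of CDKN1C in its imprinted cluster moved in both directions. With RMC-6236, 6 of 10 tested neighbours rose and 4 fell in PSN1 cells, where 45.8% of all genes were higher and 34.6% lower. The counts were 5 and 3 of 9 in SW1990 cells (30.7% and 41.7%), 3 and 4 of 7 in KPC cells (37.9% and 35.8%), and 1 and 4 of 10 in tumours (20.3% and 19.2%). PHLDA2, a maternally expressed growth suppressor of the cluster, went the other way from CDKN1C, from 95.1 to 20.4 FPKM in PSN1 and from 77.6 to 26.2 in SW1990 cells, and Phlda2 fell by 2.14 in KPC cells and fell by 1.19 in tumours. SLC22A18 rose by 1.06 in PSN1 and 0.75 in SW1990 cells, and Slc22a18 rose by 0.70 in KPC cells and fell by 0.65 in tumours. The noncoding gene H19 had a mean of 1233 FPKM in PSN1 control cells, rose there by 1.47 with RMC-6236 and fell by 1.11 with tazemetostat, and rose by 2.24 with RMC-6236 in SW1990 cells. KCNQ1 in PSN1 cells had means of 0.0152 FPKM in control, 0.433 with tazemetostat, 0.650 with RMC-6236 alone and 2.04 with both, and it passed the filter through the combination arm. KCNQ1OT1, the antisense RNA of the cluster, stayed between 0.0273 and 0.0679 FPKM in PSN1 cells and overlaps KCNQ1, whose reads cannot be told apart from it without strand.

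Next to CDKN2A lies MTAP, an enzyme of methionine salvage that is often deleted with it. In PSN1 cells MTAP ranged from 0.0403 to 0.167 FPKM and was not tested, beside CDKN2A at 0.123 to 0.416 and CDKN2B at 9.76 to 13.5. SW1990 cells, with CDKN2A and CDKN2B listed at 0, had a mean MTAP level of 4.32 FPKM in control, 3.51 with tazemetostat, 2.44 with RMC-6236 alone and 2.11 with both. KPC cells had 43.3, 38.0, 30.3 and 24.3 FPKM in the same order. Mtap fell in KPC cells with RMC-6236 (-0.51 ± 0.05) and with both drugs (-0.81 ± 0.05, limma adjusted p = 1.7e-08), as Cdkn2a and Cdkn2b did, and in tumours (-0.37 and -0.36). KLHL9, farther along the chromosome, rose by 0.21 in PSN1 and 0.25 in SW1990 cells with RMC-6236, and Klhl9 rose by 0.33 in tumours and was not called in KPC cells (0.07).

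The pattern of each member over the 12 differences from control (3 treated arms in 4 tables) was set beside that of 8634 genes tested in all 4 tables. The differences within a table share their control libraries, so the likeness is a description, measured as the root mean square (RMS) distance on the log2 scale. CDKN1B lay closest to PLEKHF1 (0.19), TBC1D17 (0.19) and IRF2BPL (0.20), against a median of 0.75 over all genes. CDKN2C lay closest to the histone gene H4C9 (0.19), TMEM129 (0.23) and IFT80 (0.25), against 0.70. For CDKN2D the nearest genes were POC1A (0.16), SH3BGRL3 (0.18) and ARHGAP19 (0.18), against 0.59. CDKN1A and CDKN1C had no match as close in raw distance, but their own differences were larger. The RMS of those differences was 1.14 and 2.34, against 0.67 for CDKN1B, 0.61 for CDKN2C and 0.50 for CDKN2D. Distances were not scaled to that size. BLVRB, BAMBI and ACSL1 each stood 0.53 from CDKN1A (median 1.19), and BMF, CFB and WNT4 stood 0.82, 0.83 and 1.07 from CDKN1C (median 2.37). CDKN2A and CDKN2B were not compared in this way, since they were not tested in all 4 tables.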

How the data were processed

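RNA-seq values of 52 of the 67 labelled samples were used, and the other 15, KPC tumours grown under the skin, are not analysed here. The authors deposited FPKM per gene, 1 table for each cell line and 1 for the orthotopic tumours. Per the submitters' processing notes, FastQC 0.11.2, STAR 2.5.3a and StringTie 1.3.1c were used. The notes list a human build for every sample, so the mouse build and the counting strand are not given in the sources used here. Libraries were made with a stranded mRNA kit, per the labels' protocols.

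Groups came from the sample labels, with 0 unmapped value columns. For each table a linear model with a mean for every arm was fitted by limma 3.58.1 (R 4.3.3) to log2(FPKM + 1), with moderated variances that follow a trend and are robust to outliers (statmod 1.5.0). Tests were two-sided, and the Benjamini-Hochberg adjustment covered every tested gene of the table and comparison at a threshold of 0.05. Figures were drawn with matplotlib 3.10.9. Other settings of the fit, and fits leaving out each library in turn, were run as alternatives, and 0 pairs of identical columns were found. On simulated data for the RMC-6236 comparison, changes of 1 log2 unit were recovered for 100, 100, 100 and 96 of 100 genes in PSN1 (11854 genes), SW1990 (11772), KPC cells (11883) and tumours (12952), and changes of 0.5 for 97, 89, 97 and 81. False calls numbered 14, 12, 12 and 10. The simulation changed far fewer genes than were called in the data. Its changed genes lay well above 1 FPKM in control, so it does not cover CDKN1C where that gene was below this level.

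Members, lists and tests were chosen with earlier results of these data known. Named are all 7 members, up to 3 called genes of largest change per list and comparison, locus neighbours, and the 3 genes most like a member. FOXO3 and EZH2, and values of named genes in comparisons where they were not called, fall outside this rule and were singled out after their values were seen. Results for 1 regulator and 1 list are not reported here.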

Additional observations from a re-analysis of the deposited data

Results flagged for a closer look

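In the tumours, Cdkn2d in RMC-6236 replicate 2 stood at 12.04 FPKM, far from the other 3 libraries of its arm (9.62 to 10.03). Of 28 groups of 4 tumour libraries checked for such a gap this was the 1 found, and chance gives about 1 in 20.

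Several inhibitors moved in opposite directions in different tables, with every treated library above control in one and below it in the other. These differences between tables were not tested. CDKN1B with tazemetostat differed from control by 1.88 FPKM in PSN1 cells and by -3.20 FPKM in KPC cells. CDKN1A with RMC-6236 differed by 11.8 FPKM in PSN1 and 29.2 FPKM in SW1990 cells, and by -0.625 FPKM in KPC cells. CDKN2B with RMC-6236 differed by 0.921 FPKM in PSN1 and by -10.6 FPKM in KPC cells. CDKN2C with RMC-6236 differed by 5.39 FPKM in PSN1 cells, 2.86 FPKM in SW1990 cells and 5.77 FPKM in tumours, and by -7.09 FPKM in KPC cells. With the combination CDKN2C differed by 2.71 FPKM in PSN1 cells, 3.75 FPKM in SW1990 cells and 6.42 FPKM in tumours, and by -6.96 FPKM in KPC cells.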

How the results depend on the processing

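FPKM carry no read totals, so precision rests on 3 or 4 libraries per arm, and levels near 1 FPKM (CDKN1C in SW1990 cells and in the mouse tables) depend on the pseudocount. With no filter on low values the members called fell from 3 to 1 for the interaction in KPC cells, from 2 to 1 for RMC-6236 in tumours and from 2 to 1 for the combination against RMC-6236 in SW1990 cells. A pseudocount of 0.1 left 0 members in that SW1990 comparison. RMC-6236 in tumours also gave 1 member without the trend and robust options and 1 when only the compared arms were fitted, and the combination against RMC-6236 in tumours gave 1 in place of 3 with only those arms. Rescaling libraries gave 2 in place of 1 for the interaction in SW1990 cells and turned CDKN1A of the combination against RMC-6236 there to -0.017. Apart from the low-value filter and the choice of arms, which change what is fitted, the cause was not tested.

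Leaving out each library in turn, members called ranged from 1 to 2 for RMC-6236 in tumours, from 1 to 4 for the combination against RMC-6236 in tumours, from 1 to 3 for that comparison in SW1990 cells and from 1 to 2 for the SW1990 interaction. Differences that changed sign were uncalled as reported, and 1 of them, Cdkn2b with tazemetostat in KPC cells, was called without control replicate 2 (-0.11, adjusted p = 0.0497). They were, in KPC cells, Cdkn2c in the combination against RMC-6236 (-0.046 to 0.071) and Cdkn2b with tazemetostat (-0.11 to 0.024). In tumours they were Cdkn1a with RMC-6236 (-0.083 to 0.23), with the combination (-0.00072 to 0.33) and between these (-0.097 to 0.24), Cdkn2b with RMC-6236 (-0.11 to 0.0059), and Cdkn2c between these (-0.017 to 0.16) and in the interaction (-0.13 to 0.047). In the human lines they were CDKN2D in PSN1 (-0.0026 to 0.16) and SW1990 cells (-0.023 to 0.14) and CDKN1B in SW1990 cells (-0.056 to 0.055) with tazemetostat, and the SW1990 interaction of CDKN1C (-0.15 to 0.013) and CDKN2D (-0.069 to 0.094).

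Replicate numbers showed no clear pairing of the samples, though so few libraries cannot exclude one. In PSN1, SW1990, KPC and tumour libraries, those of the same number had median correlations of deviations of 0.02, -0.00, 0.02 and -0.12. For libraries of different number the medians were -0.01, 0.03, -0.00 and 0.05. In the same order, 5 of 12, 4 of 12, 5 of 12 and 1 of 16 libraries correlated best with their own number. With the replicate block the combination against RMC-6236 in SW1990 cells kept 1 member called in place of 2, and Cdkn1c in that comparison in tumours had an adjusted p of 0.064.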
